A study of Homo sapiens with 19 samples.

Results

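The canonical histone genes of the HIST clusters were followed in THP-1 cells, a human monocytic leukaemia line that takes on macrophage features when treated with the phorbol ester PMA. Members were all genes whose name on the array began with HIST1H, HIST2H, HIST3H or HIST4H, which gave 68 genes read by 96 probes, out of 31033 gene names and 50238 probes. They comprised 6 linker histone genes (H1), 16 H2A, 19 H2B, 13 H3 and 14 H4 genes. In RefSeq the 55 HIST1 genes lie on chromosome 6, the 9 HIST2 and 3 HIST3 genes on chromosome 1 and the 1 HIST4 gene on chromosome 12.

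All cells had been treated with 30 nM PMA for 16 to 18 h, rested for 2 to 3 h without it, and were then kept without further addition (untreated, UT) or with 0.1 mM vitamin C (vitC). RNA was taken 8, 24, 48 and 96 h later and labelled with a single dye, 1 sample per array. The 19 arrays comprised 2, 3, 2 and 3 UT samples at 8, 24, 48 and 96 h, and 3, 2, 2 and 2 vitC samples at the same times. The samples were separate cultures of 1 cell line, so that the p-values measure the spread between cultures of this line. No arm without PMA was analysed here.

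A level here is the log2 of the processed signal minus the 75th percentile of all probes on the same array. A gene was called higher or lower when the log2 difference was at least 1 and limma's Benjamini-Hochberg adjusted p (q), taken over all probes tested on the array, was at most 0.05. A gene whose probes moved in opposite directions was left out of that comparison.

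Histones H2A, H2B, H3 and H4 form the core around which DNA is wound, and H1 binds the DNA between cores. Most genes of these clusters are transcribed in S phase, when new DNA is packed, and their mRNAs end in a conserved stem-loop held by the stem-loop binding protein SLBP rather than in a poly(A) tail. Some of them are also made as polyadenylated mRNA, which persists in cells that have left the cell cycle, and PMA is known to slow the division of THP-1 cells.

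The arrays were labelled from an oligo-dT primer, and the share of each member's RNA that carried a poly(A) tail was not measured. In 6 member probes of 5 genes the 60-base probe held the letters of the stem-loop (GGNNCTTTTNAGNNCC, 16 letters, searched on the strand of the probe), against 8 of 50238 probes on the whole array (0.0159%). The windows around these letters are shown because they place the probe at the end of the stem-loop form of the mRNA, with the stem-loop letters in capitals.
HIST1H2AI: aaccaaaGGCTCTTTTCAGAGCCaccta
HIST2H2AA3: ctcaaaaGGCTCTTTTCAGAGCCaccca
HIST2H3C: tccaaaaGGCTCTTTTCAGAGCCacc
HIST1H4K: aacaaaaGGCCCTTTTTAGGGCCcc
HIST2H4A: tcccaaaGGCCCTTTTTAGGGCCgacca
The H2A and H3 probes carried the same 16 letters, and both H4 probes carried another version of them. The HIST2H2AA3 window was present in 2 of its probes.

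Members are near copies of each other within a class, and 30 of the 96 member probes shared a run of 20 bases or more with a probe of another member gene. The letters of 4 member probes matched the opposite strand of another member probe over 20 bases or more. The signal of such a probe may hold RNA of a close relative, and a level below is that of the probe named for the gene, the brightest one unless stated. Probes of the H3 genes that differed most between vitC and UT are shown next, with the 14 bases shared by the HIST1H3I and HIST1H3E probes in capitals. The longest run that the HIST1H3J probe shared with a probe of another member gene was 11 bases.
HIST1H3I: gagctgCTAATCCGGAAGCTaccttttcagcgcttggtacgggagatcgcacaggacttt
HIST1H3E: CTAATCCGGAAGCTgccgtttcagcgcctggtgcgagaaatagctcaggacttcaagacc
HIST1H3J: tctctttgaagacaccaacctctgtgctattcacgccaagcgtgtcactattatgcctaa

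On the single arrays 57.5 to 72.8% of all probes and 73 to 85 of the 96 member probes were well above background. The 8 groups were spread unevenly over 4 slides. All UT arrays of 8, 24 and 48 h and UT 96 h replicate 1 lay on slide 2. UT 96 h replicates 2 and 3, all vitC 8 and 24 h arrays and vitC 48 h replicate 1 lay on slide 3, vitC 48 h replicate 2 on slide 4 and both vitC 96 h arrays on slide 1. Changes with time in UT up to 48 h, and from 8 to 24 h in vitC, were therefore within 1 slide, whereas no slide held both arms at any 1 of the 4 times. Of 15 monocyte and macrophage markers on the array 13 were well above background on all arrays, and their summed level (log2) lay between 8.95 and 9.53 in every group. Single markers moved both ways, with 3 of 14 tested called higher and 4 lower in UT at 96 h against 8 h (log2 changes from -1.88 to 4.22) and 4 of 15 higher and 4 lower in vitC.

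Of the 68 members, 58 were well above background on all 19 arrays, 5 on some and 5 on none. The 5 on none were HIST1H1A, HIST1H1T, HIST1H2BA, HIST2H2BA and HIST1H4G. HIST1H1T and HIST1H2BA are known as testis genes, coding for the linker histone and the H2B of developing sperm. The other testis genes were HIST1H2AA, above background on 13 arrays, and HIST3H3, above background on all 19. The HIST3H3 probe had the highest mean level of all 68 members (6.39, from 6.01 to 6.96 over the arrays). Whether this signal came from HIST3H3 RNA was not tested.

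In UT cells the histone genes rose with time. At 96 h against 8 h, 52 of the 64 members tested were called higher and none lower, beside 8.9% of all genes tested called higher and 7.18% called lower. At 48 h 25 of 62 members were called higher and none lower, beside 5.53 and 3.38% of all genes. At 24 h only 2 of 64 members were called higher and none lower, beside 1.37 and 1.28%. With the unadjusted limma p under 0.05 and the same fold limit, 1 member was lower at 24 h (HIST1H4A, not well above background there), and 0 were lower at 48 and 96 h. The methods' t-test, after the same adjustment, called 0 members at 48 h and 6 at 96 h, beside 0 and 1.07% of all genes in either direction. The 48 h count was 14 without UT 8 h replicate 1 and 14 without UT 48 h replicate 1. The 24 h count was 1 without either UT 8 h array or UT 24 h replicate 3, 4 without UT 24 h replicate 1 and 3 without UT 24 h replicate 2.

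Over the members the median log2 changes at 24, 48 and 96 h were 0.46, 0.87 and 1.67, while over all genes they were 0.05, 0.04 and 0.02. All UT arrays of the later time lay above both UT 8 h arrays for 42, 58 and 59 of the 68 members at 24, 48 and 96 h, beside 17.6, 33.9 and 17.7% of all genes. Of the 25 members called at 48 h, 24 were called at 96 h as well, and the exception was HIST2H2BE, whose probes disagreed at 96 h. Summed fibroblast markers (2 of 7 well above background on all arrays and 1 on none) were also higher at the later times in UT, at 0.87 to 1.53 at 8 h, 1.86 to 2.06 at 24 h, 2.66 to 2.78 at 48 h and 1.89 to 2.54 at 96 h (log2). Summed T cell markers were at 3.15 to 3.19 in UT at 8 h, lower at 48 h (2.73 to 3.04) and higher at 96 h (3.44 to 4.31), and summed epithelial markers were at 1.51 to 1.76 at 8 h and 1.77 to 1.83 at 48 h. The T cell markers at 24 h, the epithelial markers at 24 and 96 h and the B cell markers at all 3 later times overlapped with 8 h. The part of these markers in the rise was not tested. More dividing cells and more histone RNA per cell cannot be told apart in these bulk samples.

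Within slide 2, where UT 96 h replicate 1 alone represents this time and is taken to vary like the other groups, 48 members were called higher, beside 14.9% of all genes called in either direction. With only the UT 96 h arrays of slide 3, a setting chosen after the data had been seen, 53 were called, beside 19%, and there time and slide cannot be told apart.

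**Figure D1:**
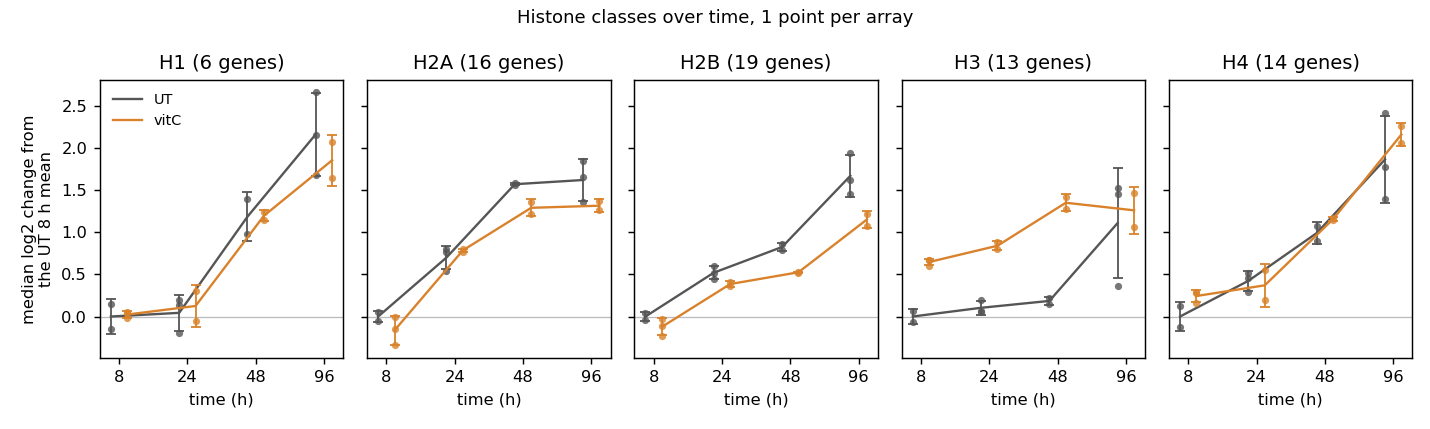
Median over the genes of each histone class (H1, H2A, H2B, H3, H4; 1 panel each) of the log2 change from the UT 8 h mean, against the hours after addition (evenly spaced); points are single arrays, lines join group means and bars are the SD, with UT in grey and vitC in orange. The UT points of H2A lie at 1.56 and 1.58 at 48 h and between 1.36 and 1.85 at 96 h, those of H1 and H4 at 96 h between 1.68 and 2.66 and between 1.39 and 2.42, and those of H3 at 96 h between 0.36 and 1.52.

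By class, 12 of the 15 H2A genes tested were called higher in UT at 48 h, against 5 of 17 H2B, 4 of 13 H4, 2 of 6 H1 and 2 of 11 H3 genes. At 96 h it was 14 of 16 H2A, 15 of 16 H2B, 11 of 13 H4, 4 of 6 H1 and 8 of 13 H3 genes. Over the fitted changes of the genes in a class, the H2A median was 0.61, 1.6 and 1.56 at 24, 48 and 96 h. Taken array by array instead, the H2A median was 1.56 and 1.58 at 48 h and 1.36, 1.85 and 1.65 at 96 h, so that the arrays of these times overlapped. The H4 median of the fitted changes went from 0.46 through 0.97 to 2, and the H2B median from 0.49 through 0.85 to 1.66. The H3 median was 0.07 and 0.14 at 24 and 48 h and 1.29 at 96 h, but array by array it was 0.36 on the UT 96 h array of slide 2, the slide of the UT 8 h arrays, and 1.45 and 1.52 on those of slide 3. Of the 8 H3 genes called at 96 h, HIST1H3I and HIST1H3J lost the call within slide 2. Differences between classes were not tested. In HIST1 45 of 55 genes tested were called at 96 h, in HIST2 5 of 6 and in HIST3 2 of 3.

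**Figure D2:**
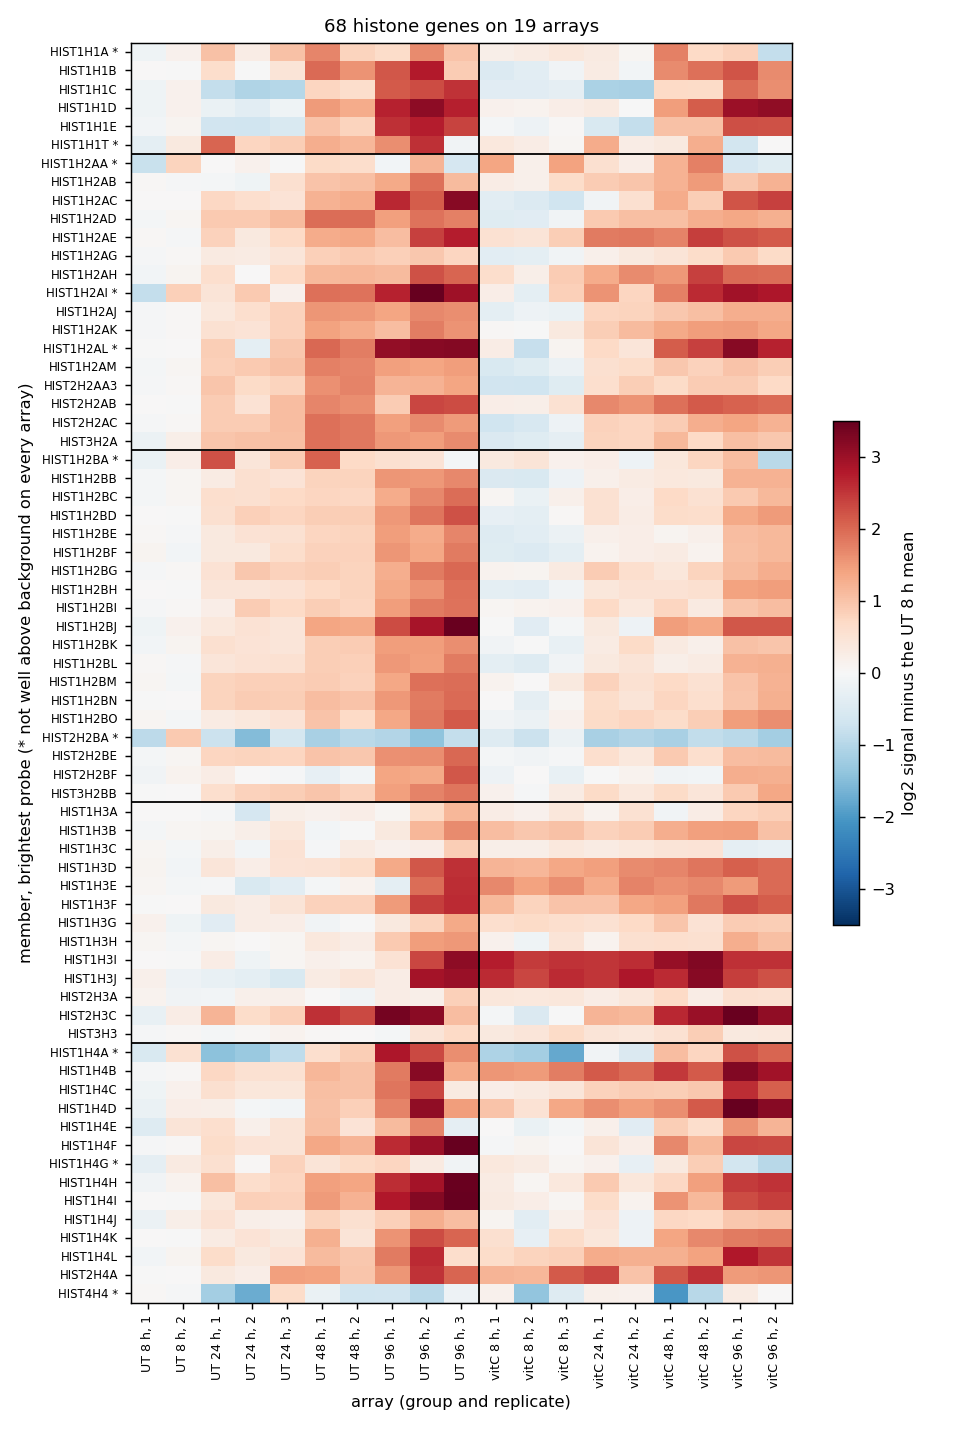
Each of the 68 members (rows, by class) on each of the 19 arrays (columns, by group), as the level of its brightest probe minus the UT 8 h mean on the log2 scale; an asterisk marks a gene whose brightest probe was not well above background on every array. The UT and vitC 96 h columns are high for most rows, and 5 H3 rows of HIST1 together with HIST3H3 are low on all 8 arrays of slide 2.

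Among the linker histone genes HIST1H1C and HIST1H1E were lowest at 24 h and highest at 96 h in both arms. The level of HIST1H1C, a linker histone made in both dividing and resting cells, was 3.8 and 4.11 on the UT 8 h arrays, 3.12, 2.89 and 2.95 at 24 h, 4.7 and 4.57 at 48 h, and 6.09, 6.25 and 6.48 at 96 h. The groups did not overlap, with 24 h lowest and 96 h highest. The change at 96 h was 2.32 (SE 0.18, 4.98-fold, q = 5.47e-07, limma), and the change at 24 h was -0.97 (SE 0.18, q = 0.00811), just short of the fold limit and so not called.

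In vitC cells HIST1H1C was 3.57, 3.57 and 3.64 at 8 h, 2.84 and 2.82 at 24 h, 4.65 and 4.62 at 48 h, and 5.9 and 5.58 at 96 h. The order of the times was that of UT, with a change of -0.76 at 24 h (q = 0.0188, limma) and of 2.15 at 96 h (q = 8.05e-07). HIST1H1E, chosen after its values had been seen, followed it, with -0.63 at 24 h (q = 0.0752) and 2.55 at 96 h (q = 1.89e-07) in UT. HIST1H1D, another linker histone, rose by 1.4 at 48 h and 2.85 at 96 h in UT (q = 0.00151 and 5.07e-07). Its arrays stood at -1.1 and -0.8 at UT 8 h and at 1.74, 2.18 and 1.78 at UT 96 h, with no overlap.

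Among the H2A genes, which pair with H2B in the core, several were highest at 48 h in UT. HIST1H2AD was at 3.3 and 3.41 on the UT 8 h arrays, 4.28, 4.26 and 4.45 at 24 h, 5.31 and 5.31 at 48 h, and 4.79, 5.26 and 5.11 at 96 h. Its highest UT arrays were those of 48 h, and the change there was 1.96 (SE 0.2, 3.89-fold, q = 2.12e-05, limma). HIST2H2AA3 had the same course, at 5.54 and 5.64 at UT 8 h, 6.57, 6.26 and 6.38 at 24 h, 7.18 and 7.33 at 48 h, and 6.77, 6.82 and 6.97 at 96 h. It rose by 1.67 at 48 h (SE 0.2, q = 6.56e-05) and by 1.27 at 96 h (SE 0.18, 2.41-fold, q = 0.000127), and all arrays of the later times lay above those of 8 h.

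HIST2H2AC was at 3.07 and 3.14 at UT 8 h, 5.03 and 4.96 at 48 h and 4.54, 4.75 and 4.6 at 96 h. HIST3H2A was at 2.23 and 2.64 at UT 8 h, 3.41, 3.46 and 3.49 at 24 h, 4.35 and 4.29 at 48 h, and 3.94, 3.91 and 4.09 at 96 h. With HIST2H2BE it was 1 of the 2 members called at 24 h in UT (1.01, SE 0.18, q = 0.00692, limma). In both genes the 48 h arrays were the highest in UT and none overlapped with 8 h.

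Other H2A genes were highest at 96 h. HIST1H2AL was at -5.38 and -5.36 at UT 8 h, -3.37 and -3.59 at 48 h, and -2.3, -2.19 and -2.16 at 96 h. Since its probe was not well above background at 8 h, the rise is given as a bound of at least 7.74-fold, set against the lowest signal well above background on those arrays or the probe's own where higher (limma q = 2.27e-05). HIST1H2AI, one of the probes with the stem-loop letters, rose at least 4.97-fold at 96 h (q = 0.000278).

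In the H2B genes most calls came at 96 h. HIST1H2BK, an H2B gene known to give polyadenylated mRNA, was at 2.89 and 3.07 at UT 8 h, 3.54, 3.45 and 3.4 at 24 h, 3.83 and 3.86 at 48 h, and 4.43, 4.44 and 4.61 at 96 h. Each time lay above the one before without overlap, and the change at 96 h was 1.51 (SE 0.17, 2.86-fold, q = 1.66e-05, limma). HIST3H2BB was at 0.66 and 0.69 at UT 8 h and at 2.11, 2.41 and 2.55 at 96 h. In HIST1H2BD the change at 96 h was 1.89 (q = 1.62e-05) and in HIST1H2BC 1.66 (q = 4.93e-05).

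Among the H4 genes, HIST1H4I was at -2.15 and -2.2 at UT 8 h, -1.77, -1.34 and -1.36 at 24 h, -0.69 and -0.96 at 48 h, and 0.63, 1.05 and 1.59 at 96 h. The times followed each other without overlap, and the rise at 96 h was 3.26 (SE 0.27, 9.58-fold, q = 9.46e-07, limma). HIST1H4F rose by 3.12 (SE 0.27, 8.71-fold, q = 1.55e-06) and HIST1H4H by 2.99 (SE 0.27, q = 2.68e-06). For HIST1H4H the arrays stood at -2.47 and -2.2 at UT 8 h and at 0.26, 0.58 and 1.12 at 96 h.

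HIST1H4C was less even, at 4.05 and 4.36 at UT 8 h and at 6.07, 6.53 and 4.52 at 96 h. All 3 arrays were above those of 8 h, with replicate 3 close to the higher of them, and the rise of 1.5 (q = 0.0153, limma) was lost when either UT 8 h array was left out. The level of HIST2H4A by its second probe was -0.9 and -0.77 at UT 8 h and 1.99, 2.08 and 2.94 at 96 h. This probe rose by 3.17 (SE 0.24, 9-fold, q = 4.83e-07).

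**Figure D3:**
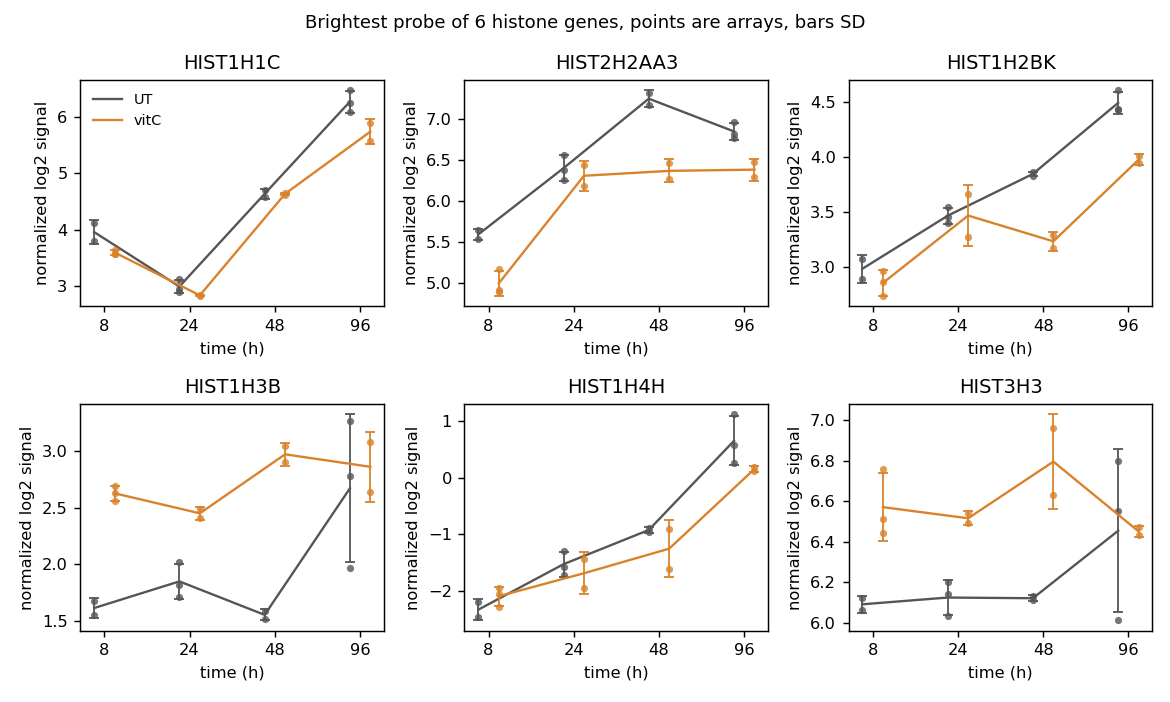
Level of 6 members (HIST1H1C, HIST2H2AA3, HIST1H2BK, HIST1H3B, HIST1H4H, HIST3H3; log2 signal minus the array's 75th percentile) against hours after addition, each point 1 array, lines joining group means and bars the SD, UT in grey and vitC in orange. HIST1H1C is lowest at 24 h in both arms, HIST2H2AA3 is highest at 48 h in UT, and UT 96 h of HIST3H3 spreads from 6.01 to 6.8.

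The H3 genes had the lowest share of calls at 96 h in UT, and the UT 96 h arrays of several of them differed by slide. HIST2H3C was at -2.76 and -2.25 at UT 8 h, 0.04 and -0.19 at 48 h, and 0.84, 0.66 and -1.43 at 96 h. It rose by 2.43 at 48 h (SE 0.54, q = 0.00952, limma), a call that was lost without UT 8 h replicate 1 or UT 48 h replicate 1, and by 2.53 at 96 h (q = 0.0019). HIST3H3 was at 6.06 and 6.12 at UT 8 h and at 6.01, 6.55 and 6.8 at 96 h. Its 96 h arrays overlapped with those of 8 h, and the change of 0.37 was not called (q = 0.271).

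The 12 members not called higher at UT 96 h were HIST3H3, HIST1H3C, HIST2H3A, HIST1H3A, HIST1H3E, HIST1H2AG, HIST1H4E, HIST1H2AA and the members HIST1H1A, HIST1H1T, HIST1H2BA and HIST1H4G, which were not well above background on any array. The changes were 0.41 in HIST1H3C (q = 0.25, limma), 0.44 in HIST2H3A (q = 0.172), 0.64 in HIST1H3A (q = 0.148), 1.39 in HIST1H3E (q = 0.104) and 0.83 in HIST1H4E (q = 0.228). HIST1H2AG passed q without reaching the fold limit (0.85, q = 0.00192).

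Of the members known to give polyadenylated mRNA in differentiated cells (HIST1H1C, HIST1H2AC, HIST1H2BC, HIST1H2BD, HIST1H2BK, HIST1H4H, HIST2H2BE and HIST2H2AA3), 1 of 8 was called higher at 24 h in UT, 5 of 8 at 48 h and 7 of 7 tested at 96 h, with a median change of 1.82 at 96 h against 1.67 over all members. HIST1H2AC was at -0.57 and -0.57 at UT 8 h, 0.66 and 0.74 at 48 h, and 2.08, 1.55 and 2.61 at 96 h. Of the 4 testis genes none was called in UT.

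The vitC cells showed a like rise over time. At 96 h against 8 h, 46 of 62 members tested were called higher and 2 lower, beside 10.9 and 18% of all genes. At 48 h 31 of 65 were called higher and none lower, beside 8.1 and 5.02%, and at 24 h 7 of 59 and none, beside 2.95 and 2.66%. With the unadjusted limma p, 0 were lower by the fold limit at 24 and 48 h. The medians were 0.48, 0.77 and 1.4, against -0.06, 0.08 and -0.17 over all genes. The 8 and 24 h arrays of vitC shared slide 3, and within that slide, where vitC 48 h replicate 1 stands alone for its time and is taken to vary like the other groups, 26 members were called at 48 h, beside 10.7% of all genes called in either direction. Summed fibroblast markers were at 2.4 to 2.65 at 8 h, 3.22 to 3.58 at 48 h and 2.79 to 2.92 at 96 h (log2). At 96 h summed T cell markers were above 8 h (3.99 to 4.08 against 3.47 to 3.9) and summed B cell markers below it (0.68 to 0.9 against 1.83 to 1.99), and at 24 h epithelial markers were above it (1.75 to 1.8 against 1.53 to 1.67). These lists overlapped with 8 h at the other times, and their part in the rise was not tested. Both 96 h arrays were alone on slide 1 and on their scan day, and had the highest 75th percentile signals (787.6 and 903.5, against 290.2 to 625.6 on the others) and the highest shares of probes well above background (69.8 and 72.8%), so that time and slide cannot be told apart there.

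Of the members called higher, 2 at 24 h were shared by both arms (100% of those in UT and 28.6% of those in vitC), 23 at 48 h (92 and 74.2%) and 44 at 96 h (84.6 and 95.7%). Over all genes called higher, the shares were 67.5 and 31.2% at 24 h, 76 and 50.8% at 48 h, and 69.2 and 55.1% at 96 h, and the difference from the members was not tested. The arms have no arrays in common. Over the 68 members the 96 h changes in UT and in vitC had a Pearson correlation of 0.74, a description across genes that share arrays and, in part, sequence.

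At 24 h the vitC calls held HIST2H2AA3 (1.32, SE 0.18, q = 0.000373, limma), HIST1H2AD (1.3, q = 0.000527), HIST2H2AC (1.26, q = 0.000854) and HIST3H2A (1.19, q = 0.00103), all H2A genes. At 96 h 13 of 15 H2A, 12 of 15 H2B, 11 of 13 H4, 4 of 6 H1 and 6 of 13 H3 genes were called higher. The H3 median change at 96 h was 0.23 in vitC.

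HIST2H3C rose in vitC from -2.57, -3 and -2.52 at 8 h to 0.12 and 0.52 at 48 h and 0.96 and 0.6 at 96 h. The change was 3.01 at 48 h (SE 0.49, 8.08-fold, q = 0.000612, limma) and 3.47 at 96 h (SE 0.49, 11.1-fold, q = 0.000117). HIST1H1B, a linker histone of dividing cells, was at -4.55, -4.43 and -4.18 at 8 h and -2.4 and -2.13 at 48 h, a rise of 2.12 (q = 0.00213). HIST1H4A rose at least 5.08-fold and HIST1H2AL at least 5.71-fold at 96 h, both from levels not well above background. Of the 2 members called lower, HIST1H4G was not well above background on any array. The other was HIST1H2AA, the testis H2A gene (-1.5, SE 0.51, q = 0.0337). Its arrays stood at -3.36, -4.54 and -3.31 at 8 h and -5.33 and -5.16 at 96 h, and the call was lost when vitC 8 h replicate 1 or 3 or either 96 h array was left out.

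Between vitC and UT cells at the same time few histone genes differed. At 8 h 1 of 56 members tested was called higher and none lower, beside 0.322 and 0.227% of all genes. At 24 h it was 2 of 59 and none (0.835 and 0.82% of all genes), and at 48 h 4 of 58 and none (2.08 and 1.56%). At 96 h none of 57 was higher and 2 were lower (2.72 and 10.1%). By the unadjusted limma p and the same fold limit, 1, 0 and 1 members were lower at 8, 24 and 48 h and 1 was higher at 96 h. The 24 h count was 1 without UT 24 h replicate 1 and 0 without any of the other 4 arrays compared. The 48 h count was 2 without vitC 48 h replicate 1 and 0 without any of the other 3 arrays. The 96 h count was 0 without either vitC 96 h array and 4 and 6 without UT 96 h replicates 2 and 3.

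The median log2 difference of the members was 0.12, 0, 0.03 and -0.24 at 8, 24, 48 and 96 h, against -0.05, -0.13, -0.02 and -0.15 over all genes. Averaged over the 4 times, 5 of 59 members were called higher and none lower, beside 2.05 and 1.41% of all genes, and by the unadjusted p 0 were lower. For the differences between the 4 vitC effects, limma's F test called 0 of 68 members, against 1.36% of all genes, with 15 members at an unadjusted p under 0.05. Without UT 96 h replicate 1 this test called 5 members.

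All members called higher were H3 genes at 8, 24 and 48 h, and in the average 3 H3 and 2 H4 genes. HIST1H3I, a gene for the replication-dependent H3.1 protein, was at -2.89 and -2.93 at UT 8 h, -2.65, -3.05 and -2.84 at 24 h, -2.74 and -2.79 at 48 h, and -2.41, -0.56 and 0.21 at 96 h. In vitC it was at -0.15, -0.47 and -0.37 at 8 h, -0.42 and -0.32 at 24 h, 0.14 and 0.32 at 48 h, and -0.36 and -0.35 at 96 h. The arms did not overlap up to 48 h and did at 96 h.

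The difference in HIST1H3I was 2.58 at 8 h (SE 0.49, 5.98-fold, q = 0.0377, limma), 2.48 at 24 h (q = 0.0224), 3 at 48 h (SE 0.54, 7.99-fold, q = 0.00853) and 0.56 at 96 h (q = 0.494). The 8 h call was lost when any 1 of its 5 arrays was left out. HIST1H3J, also an H3.1 gene, was at -1.3 and -1.64 at UT 8 h, -1.2, 1.43 and 1.56 at UT 96 h, and 1.13, 0.86 and 1.14 at vitC 8 h. It was called at 24 h (3.05, 8.27-fold, q = 0.0179) and 48 h (2.54, q = 0.0392), but not at 8 h (2.51, q = 0.0739) or 96 h (0.27, q = 0.798). The other calls at 48 h were HIST1H3B (1.42, q = 0.0227) and the second probe of HIST2H3A (1.2, q = 0.0364).

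On all 8 arrays of slide 2 the levels of HIST1H3B, HIST1H3E, HIST1H3G, HIST1H3I, HIST1H3J and HIST3H3 were below those on all 11 other arrays, which was the case for 8.82% of members and 1.18% of all genes. All 6 are H3 genes. Of the other members called between the arms, HIST2H3A, HIST1H4B and HIST1H4D did not split in this way. No member was above all 11 other arrays on all 8 arrays of slide 2, beside 0.161% of all genes. UT 96 h is the only group that spans slides 2 and 3. There HIST1H3J was at -1.2 on slide 2 and at a mean of 1.49 on slide 3, HIST1H3E at 1.78 and 4.39, and HIST1H3I at -2.41 and -0.18, all 3 within cells of the same treatment and time.

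With slide as a fixed block, whose size rests on these UT 96 h arrays, no member was called at 8, 24 or 48 h. HIST1H3I then differed by 0.35, 0.25 and 0.68, and HIST1H3J by 0.36 at 24 h and by -0.45 at 48 h. Beyond this, slide and vitC cannot be told apart at 8, 24 and 48 h, and at 96 h vitC cannot be told apart from slide 1 and its scan day. The summed fibroblast markers also lay higher in vitC (log2), at 2.4 to 2.65 against 0.87 to 1.53 in UT at 8 h, 2.32 to 2.94 against 1.86 to 2.06 at 24 h, 3.22 to 3.58 against 2.66 to 2.78 at 48 h, and 2.79 to 2.92 against 1.89 to 2.54 at 96 h. Summed B cell markers (3 of 5 on all arrays) were at 1.83 to 1.99 in vitC and 0.55 to 1.11 in UT at 8 h and at 1.89 to 2.33 and 0.91 to 1.36 at 48 h, and overlapped at 24 and 96 h. Summed T cell markers (2 of 7 on all arrays and 1 on none) were at 3.47 to 3.9 and 3.15 to 3.19 at 8 h and at 3.14 to 4.22 and 2.73 to 3.04 at 48 h, and overlapped at 24 and 96 h. Summed epithelial markers (3 of 6 on all arrays and 3 on none) were at 1.75 to 1.8 in vitC and 1.47 to 1.74 in UT at 24 h, lower in vitC at 48 h (1.47 to 1.56 against 1.77 to 1.83), and overlapped at 8 and 96 h. The part of these markers in the result was not tested.

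**Figure D4:**
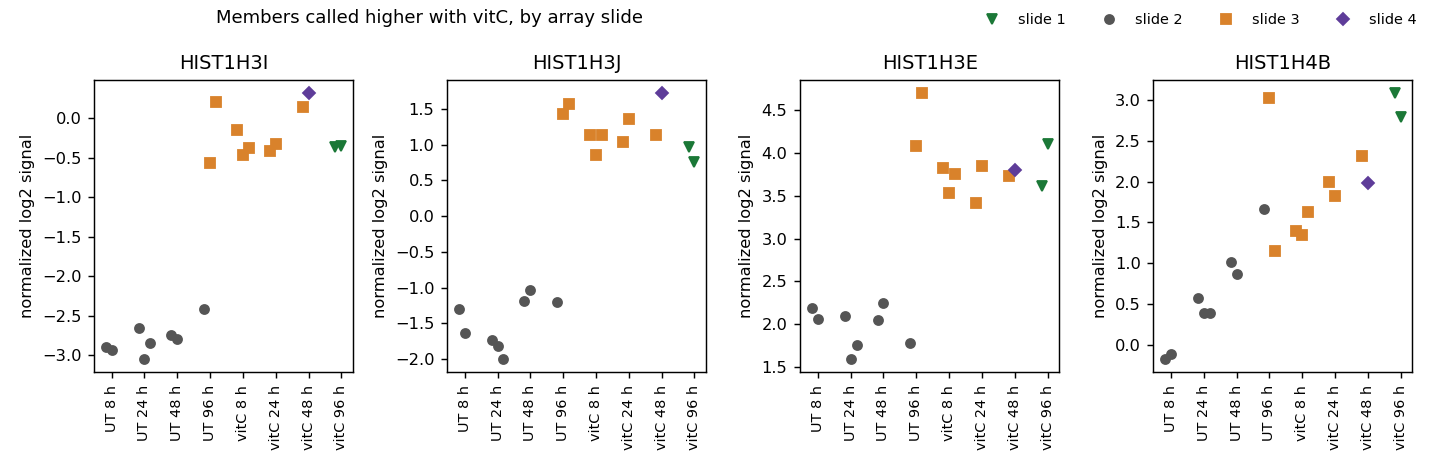
Level of HIST1H3I, HIST1H3J, HIST1H3E and HIST1H4B (log2 signal minus the array's 75th percentile) on the 19 arrays by group. Marker shape and colour give the slide, green for slide 1, grey for 2, orange for 3 and purple for 4. The arm is given by the group labels only. For the 3 H3 genes the UT 96 h array on slide 2 lies with the other UT arrays and the UT 96 h arrays on slide 3 lie with the vitC arrays, from 1.43 to 1.56 for HIST1H3J; HIST1H4B does not split in this way, at 1.67 on slide 2 and 3.03 and 1.15 on slide 3.

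A second probe of HIST1H3B did not follow the slides. The brightest HIST1H3B probe was at 1.97 on the UT 96 h array of slide 2 and 2.78 and 3.26 on those of slide 3, while the second probe was at -0.34, 0.04 and -0.49. The second probe rose with time in both arms, by 2.63 in UT (q = 7.56e-07, limma) and 2.71 in vitC (q = 4.31e-07) at 96 h. In the average over times HIST1H4B (1.32, q = 6e-04) and HIST1H4D (1.17, q = 0.0019), both H4 genes, were called with HIST1H3I, HIST1H3J and HIST1H3E. HIST1H4B was at -0.18 and -0.12 at UT 8 h and 1.39, 1.35 and 1.63 at vitC 8 h, and at 1.67, 3.03 and 1.15 at UT 96 h and 3.09 and 2.8 at vitC 96 h. The arms did not overlap at 8 h and did at 96 h, where replicate 2 of UT reached the level of vitC.

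Below the fold limit, several H2A and H2B genes were lower with vitC. At 48 h HIST3H2A differed by -0.98 (q = 0.0165, limma), HIST2H2AA3 by -0.89 (q = 0.0226) and HIST1H2AD by -0.79 (q = 0.0429). On the arrays HIST2H2AA3 was at 7.18 and 7.33 in UT and at 6.27 and 6.47 in vitC at 48 h, and at 5.54 and 5.64 against 4.91, 4.89 and 5.17 at 8 h. Without the fold limit, 13 of 59 members were higher and 11 lower in the average, beside 5.96 and 9.72% of all genes, and the 11 lower ones were all H2A and H2B genes, among them HIST1H2BK (-0.31, q = 0.03). The class medians at 8, 24, 48 and 96 h were 0.62, 0.57, 0.82 and 0.12 for H3, -0.2, 0.12, -0.08 and -0.27 for H2A and -0.13, -0.21, -0.25 and -0.48 for H2B.

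Both members called lower at 96 h were called by a probe not well above background in either group, so the size of that difference is not given. These were the second probe of HIST1H2BN (q = 0.0168, limma) and the probe of HIST1H4G (q = 0.0361). The brightest HIST1H2BN probe, well above background on all 19 arrays, was also lower with vitC at 96 h (-0.67), short of the fold limit. HIST1H4I was also lower there, short of the fold limit (-0.91, q = 0.0408), at 0.63, 1.05 and 1.59 in UT and 0.11 and 0.24 in vitC without overlap. Of the members known to give polyadenylated mRNA none was called between the arms at any time, with median differences of -0.16, -0.2, -0.24 and -0.51.

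Probes of 1 gene did not always agree. HIST2H2BE, an H2B gene known to be polyadenylated in resting cells, had 3 probes. The first was at -0.39 and -0.23 at UT 8 h, 0.7 and 0.64 at 48 h, and 1.3, 1.31 and 1.71 at 96 h. The second was at -0.73 and -0.63, 1.48 and 1.44, and -0.57, -0.49 and -1.21 at the same times. The first was thus highest at 96 h, and the second was highest at 48 h, with its 96 h arrays around those of 8 h.

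The last HIST2H2BE probe had the course of the second, at -3.98 and -3.58 at UT 8 h, -1.67 and -1.88 at 48 h, and -3.49, -4.33 and -3.99 at 96 h. In vitC the second was at 0.66 and 0.35 at 48 h and -0.57 and -0.63 at 96 h, so that the split was present in both arms. At 48 h the second probe rose by 2.14 in UT (SE 0.23, q = 3.16e-05, limma), and at 96 h the gene was not tested. HIST2H2BF, an H2B gene chosen after its values had been seen, had a first probe at 2.08 and 2.33 at UT 8 h, 1.93 and 2.12 at 48 h, and 3.59, 3.52 and 4.37 at 96 h. Its next-to-last probe was at -2.47 and -2.25, -4.57 and -3.91, and -1.97, -1.73 and -3.76, lowest at 48 h. The last of its 4 probes was not well above background on any array.

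**Figure D5:**
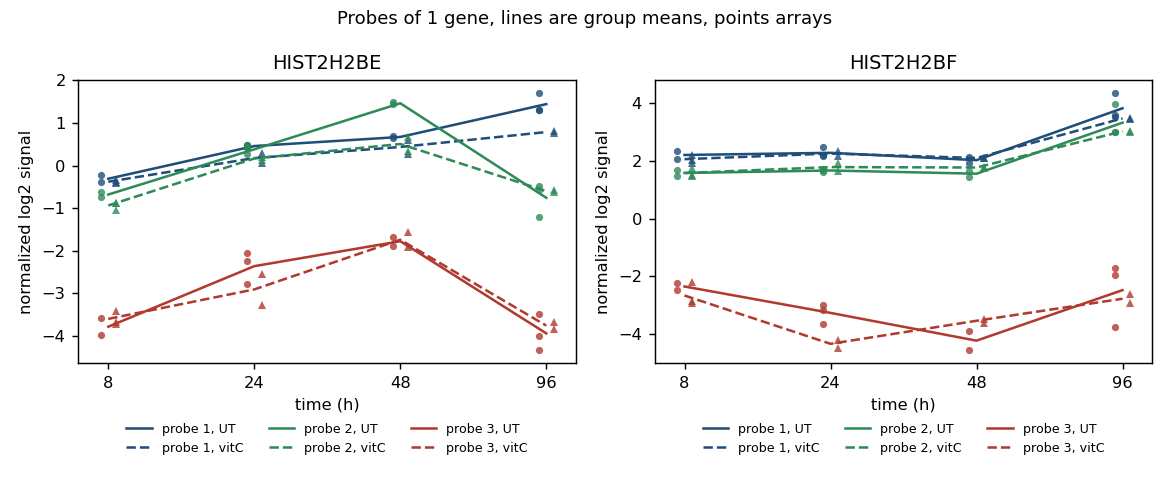
Level of the 3 probes of HIST2H2BE and of the 3 of 4 probes of HIST2H2BF that were well above background on all arrays (log2 signal minus the array's 75th percentile) against hours after addition, points being arrays and lines group means, solid for UT and dashed for vitC. The first HIST2H2BE probe is highest at 96 h in UT (1.3 to 1.71), while the other two are highest at 48 h.

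Genes of DNA replication rose along with the histones. Of the S phase genes tested, 0 of 28 were called higher in UT at 24 h, 24 of 28 at 48 h and 28 of 28 at 96 h, with median changes of 0.36, 1.56 and 2.19. In vitC 15 of 27, 26 of 28 and 25 of 27 were called. TYMS, which makes thymidylate for DNA synthesis, rose by 3.2 in UT at 96 h (q = 6.05e-07, limma). Genes of G2 and M phase rose too, 16 of 20 at 48 h and 20 of 20 at 96 h in UT, led by KIF20A (3.72), a kinesin of cell division.

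Between the arms 4 of 27 S phase genes were higher with vitC at 24 h, beside 0.835% of all genes tested. None of those tested was called at the other 3 times, and no G2 and M phase gene was called at any of the 4 times. At 24 h the median difference was 0.54 over the S phase genes, 0 over the histone genes and -0.13 over all genes. The UT 24 h arrays lay on slide 2 and the vitC 24 h arrays on slide 3, so that slide and vitC cannot be told apart.

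Of 15 genes for histone gene transcription and 3′ end processing tested, 6 were called higher in UT at 96 h, with a median of 0.71. They included E2F1, a transcription factor of S phase entry (2.69, q = 4.34e-07, limma), and CCNE2 and CCNE1, the E cyclins (2.81, q = 0.0263, and 1.71). SLBP, which binds the stem-loop, had a change of 0.76 in UT (q = 0.12) and rose by 1.24 in vitC (q = 0.0104). NPAT, the coactivator of histone gene transcription, was higher with vitC than in UT at 96 h (1.26, q = 0.0039).

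Of 19 histone chaperone genes 5 were called higher in UT at 96 h, with a median of 0.27. ASF1B, which hands H3 and H4 over during replication, rose by 2.8 (q = 3.03e-06, limma), and CHAF1B and CHAF1A, subunits of the chromatin assembly factor CAF-1, by 2.39 and 2.05. NASP, a chaperone of H3 and H4, rose by 1.37. Of 13 listed histone genes outside the member rule 5 were called higher in UT at 96 h, with a median of 0.71. These held CENPA, the H3 of centromeres (3.43, q = 2.46e-05), H2AFZ, the gene of H2A.Z (1.94, q = 9.4e-06), and H2AFX (2.06).

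RefSeq (GRCh38.p14) gave a promoter window for 62 of the 68 members, from 250 bases before the start to 50 after it. The whole window was searched on both strands for the CCAAT box and for a TATA box with the letters TATAAA. It was also searched for the octamer of histone genes with the letters ATTTGCAT. The CCAAT box was found in 85.5% of member promoters and 34.6% of all 35116, the TATA box in 67.7 and 11.5%, and the octamer in 41.9 and 1.77%. The octamer was present in 11 of 15 H2A and 14 of 18 H2B promoters, in 1 of 11 H3 and in no H1 or H4 promoter. The CCAAT box was in all H1, H2A, H2B and H3 promoters and in 3 of 12 of H4. These are matches of letters in a window, and binding was not measured.

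Promoters of members with different courses are shown as the 250 bases before the start, with the matches in capitals. HIST1H2AG at chr6:27132793-27133042 (plus strand) shares 247 of its 250 bases with the promoter of HIST1H2BJ, which is transcribed away from it. HIST1H4H at chr6:26285535-26285784 (minus strand) held none of the 3 motifs, and HIST2H2BE at chr1:149886683-149886932 (minus strand) held all 3.
HIST1H2AG: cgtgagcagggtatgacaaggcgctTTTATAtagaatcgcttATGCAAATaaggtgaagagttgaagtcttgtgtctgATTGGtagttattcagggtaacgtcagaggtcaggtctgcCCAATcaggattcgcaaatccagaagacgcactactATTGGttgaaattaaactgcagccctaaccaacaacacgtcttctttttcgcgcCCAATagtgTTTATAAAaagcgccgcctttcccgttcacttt
HIST1H4H: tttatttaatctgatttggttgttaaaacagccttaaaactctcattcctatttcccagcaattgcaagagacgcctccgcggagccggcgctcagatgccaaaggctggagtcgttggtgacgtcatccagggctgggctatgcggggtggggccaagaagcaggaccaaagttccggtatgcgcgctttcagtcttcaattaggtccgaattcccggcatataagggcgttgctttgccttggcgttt
HIST2H2BE: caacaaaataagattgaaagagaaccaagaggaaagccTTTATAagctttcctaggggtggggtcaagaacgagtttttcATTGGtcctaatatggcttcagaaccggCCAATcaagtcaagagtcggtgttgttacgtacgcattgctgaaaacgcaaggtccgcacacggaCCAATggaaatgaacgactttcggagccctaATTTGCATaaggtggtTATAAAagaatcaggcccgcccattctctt
HIST1H2AG changed by 0.85 in UT at 96 h, from 1.65 and 1.75 to 2.54, 2.65 and 2.46. HIST1H2BJ, chosen after its values had been seen, went from -1.8 and -1.49 to 0.64, 1.24 and 1.81, so both partners of the shared promoter were above 8 h on all arrays of 96 h. In all, 12 such head-to-head pairs with overlapping windows covered 23 members.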

How the data were processed

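Total RNA of 19 PMA-differentiated THP-1 samples was reverse transcribed by the study from an oligo-dT primer, labelled with Cy3 (Agilent Quick Amp) and hybridised to 1-colour Agilent arrays. Per the file headers, intensity values are the deposited processed signals of Feature Extraction 10.5.1.1, already background-subtracted. Used as an alternative, the deposited value table of the series holds log2 values of the authors. Samples were grouped by treatment and time from the labels. Control probes were left out, spots of a probe averaged, log2 taken and the 75th percentile of each array subtracted, as the methods state for the study. The 75th percentile signal was 290.2 to 903.5 per array, and the number of arrays limits the precision.

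All 8 group means were fitted at once with limma 3.58.1 (R 4.3.3, with version 1.17.8 of data.table), in place of the methods' t-test, with tables and figures from Python 3.11.15, pandas 2.3.3 and matplotlib 3.10.9. The steps were tested on simulated data. A gene was counted once, through any called probe, and shown by its brightest probe. The members, the gene lists and the tests were chosen with earlier results of these data known, and the lists come from general knowledge. Named members were the 12 brightest, up to 5 largest rises and falls among the called members per comparison whose called probe was detected (well above background) throughout at least 1 compared group, and all genes of the polyadenylated and testis lists. Of other lists at most 4 called genes per list and comparison could be named. Names outside this rule are given to complete a count or as chosen after their values were seen. These are HIST1H1E, HIST1H2BJ, HIST2H2BF, HIST1H3G, HIST1H2BN, HIST1H4G, HIST1H4E, HIST1H2AG, HIST1H1A, HIST2H2BA, SLBP and the genes without the fold limit.

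All 68 array names were older symbols of a RefSeq gene. Another 22 RefSeq genes of these clusters had no name on the array and were not analysed here. The alternatives tried were the methods' t-test, an intensity trend, normexp background correction (offset 50), quantile normalization, the percentile over detected probes, the series table, a filter on dim probes, means over probes, opposing probes kept, no fold limit, slide as a fixed or random block, within 1 slide, replicate blocks and leaving out each array.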

Additional observations from a re-analysis of the deposited data

How the results depend on the processing

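Of the 3488 values of single genes under the alternatives 3140 kept their call, 346 lost it and 2 reversed, HIST1H3J in vitC against UT at 48 h with slide as a fixed block (-0.45) and HIST1H3G in vitC at 96 h against 8 h under normexp background correction (-0.17). In the following, counts are members called, and each bracket gives the percent of all genes called in either direction in the same order. The methods' t-test after the same adjustment called 0 members in vitC against UT at 8, 24, 48 and 96 h, 0 in UT at 24 and 48 h, 6 in UT at 96 h and 0 in vitC at 24 h (0.0477, 0, 0.0118, 0, 0, 0, 1.07 and 0). With an intensity trend vitC against UT gave 3, 4 and 1 at 8, 24 and 96 h (0.835, 2.14 and 6.63). Normexp gave 3 in vitC against UT at 8 h and 18 in vitC at 48 h (0.752 and 6.12), and its member medians were 1.48 in UT at 96 h and 0.3, 0.61 and 1.08 in vitC at 24, 48 and 96 h. Slide as a fixed block gave 0, 0 and 0 in vitC against UT at 8, 24 and 48 h and 45 in UT at 96 h (0.0357, 0.0787, 0.548 and 11.7), and as a random block 0 and 2 at 8 and 48 h (0.33 and 3.12). It could not be fitted as a fixed block for vitC 96 h. With probes above background only, vitC against UT gave 4 at 24 h and 0 at 96 h (2.98 and 5.19). Means over probes gave 2 and 1 in vitC against UT at 48 and 96 h and 4 in vitC at 24 h (2.44, 8.17 and 3.86). Without the fold limit there were 8 and 5 in vitC against UT at 48 and 96 h, 24 in the average, 9 in UT and 14 in vitC at 24 h (4.37, 17.2, 15.7, 3.63 and 7.82). Quantile normalization gave 1 in vitC against UT at 96 h and 1 in UT at 24 h (3.89 and 2.99). The causes were not tested.

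Replicate numbers did not pair the samples, since deviations of arrays with the same number, from titles or from descriptions, correlated between -0.11 and 0.09. With the replicate block of either kind vitC against UT gave 0, 2 and 1 at 8, 48 and 96 h, and UT at 96 h gave 52 (0.191, 3.07, 4.56 and 14.7% of all genes for titles and 0.168, 3.07, 4.84 and 14.8% for descriptions).

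Leaving out 1 array at a time, vitC against UT gave 0 to 0, 0 to 1, 0 to 2 and 0 to 6 at 8, 24, 48 and 96 h, the average 5 to 5 and the F test 0 to 5. UT gave 1 to 4, 14 to 21 and 46 to 53 at 24, 48 and 96 h, and vitC 6 to 8, 26 to 31 and 42 to 50. Where this left 1 array in a group, it was taken to vary like the other groups. For the 5 members not well above background on any array no size of change is given, though HIST1H4G was among those called.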
